A study of Mus musculus with 18 samples.

Results

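The Pyhin genes, also called AIM2-like receptor genes, were chosen as a list of names, with earlier results of these data known: Pyhin1, Mndal, Mnda, Ifi203, Ifi204, Ifi205 and Aim2. All 7 are in the deposited table, which lists 23418 genes. PolyA RNA was sequenced from leukemia cells of C57BL/6 mice. The cells had been transformed by fusions of the histone methyltransferase MLL with a partner protein: MLL-AF9, MLL-AF6 and MLL-AF1p in separate cells. Cells of each construct received 6 µM MI-2-2, a small molecule that blocks the binding of menin to MLL, or DMSO at 0.25%, for 6 days, with fresh medium and compound on day 3. The 6 groups held 3 libraries each, 18 in all. The labels do not say whether the 3 libraries of a group came from separate cultures, so p-values measure the spread between these libraries only, which may be technical. They also do not say whether a construct stands for more than 1 transformed line, so a fusion partner and a line cannot be told apart.

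PYHIN proteins usually join an N-terminal pyrin domain, which binds other pyrin domains, to a C-terminal HIN domain, which binds DNA. AIM2 senses DNA in the cytosol and recruits the adaptor ASC to form an inflammasome, which activates caspase-1. The remaining mouse genes form a cluster that has expanded by duplication, and several of them were first described as genes induced by interferon in myeloid cells.

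In the reference annotation the 7 genes lie on chromosome 1 in the order Aim2, Pyhin1, Ifi204, Mndal, Mnda, Ifi203 and Ifi205, with other Pyhin genes between them. Current annotation calls Pyhin1 Ifi209 and Mnda Ifi211. RefSeq promoter windows (GRCm38.p6), each running from 250 bases before to 50 bases after an annotated start, were given for 6 of the 7 genes, and Ifi204 is named only. The windows were searched on both strands for the core of the interferon-stimulated response element, GAAANNGAA. It was found within 80 bases before the start in 3 of the 6 members (Mndal, Mnda and Ifi203), and elsewhere in the window in Ifi205. Of all genes with windows, 2.38% hold it within those 80 bases and 9.76% anywhere in the window. Pyhin1 and Aim2 held no match, which says only that these letters are absent from those windows. The stretches are shown because the members that carry the core and those that do not are compared below. Each ends at the base before the annotated start, and capitals mark the element core (in Aim2, the PU.1 core GAGGAAGT, which 3.69% of all genes with windows hold):
Mndal, chr1:173880188-173880267, minus strand: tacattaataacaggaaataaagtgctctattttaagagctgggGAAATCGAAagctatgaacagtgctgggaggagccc
Ifi203, chr1:173942493-173942572, minus strand: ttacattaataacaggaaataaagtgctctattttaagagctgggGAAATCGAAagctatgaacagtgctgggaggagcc
Mnda, chr1:173913047-173913126, minus strand: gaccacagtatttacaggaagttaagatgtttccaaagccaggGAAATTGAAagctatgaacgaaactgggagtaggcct
Ifi205, chr1:174031756-174031895, minus strand: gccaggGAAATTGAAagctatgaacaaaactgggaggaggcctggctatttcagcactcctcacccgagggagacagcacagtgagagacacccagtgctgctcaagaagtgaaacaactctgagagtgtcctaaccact
Pyhin1, chr1:173630779-173630858, plus strand: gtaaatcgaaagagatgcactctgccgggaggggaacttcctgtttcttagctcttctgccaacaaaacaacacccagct
Aim2, chr1:173420484-173420603, plus strand: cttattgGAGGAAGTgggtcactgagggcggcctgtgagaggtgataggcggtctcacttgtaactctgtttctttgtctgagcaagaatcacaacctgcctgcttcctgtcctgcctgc

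The core begins 36 bases before the start in Mndal, 35 in Ifi203, 37 in Mnda and 134 in Ifi205. Ifi205 has a second match on the opposite strand, 24 bases after the start and so outside the printed stretch. The stretches of Mndal and Ifi203 share an unbroken run of 79 bases, so these matches are not independent of each other. Those of Mnda and Ifi205 share the bases around the core, so their matches are not independent either. A second annotated start of Mndal has the core on the opposite strand, 53 bases before it, and a second start of Ifi203 has none. The windows were also searched for the interferon gamma activated site TTCNNNGAA, the PU.1 core and the C/EBP core TTNNGNAA. No member held the first, and Aim2 alone held the PU.1 core. Pyhin1, Mndal, Mnda, Ifi205 and Aim2 held the C/EBP core, as did 44.1% of all genes with windows. A match is a description of letters and not evidence of binding.

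Members also resemble each other as transcripts, and the authors' counting could have moved reads between them. Of the distinct 50-base words of the GENCODE transcripts, 72.8% of those of Mnda occur in another Pyhin gene, 49.6% of those of Ifi205, 29.7% of those of Ifi204 and 29.4% of those of Mndal. The share was 5.24% for Ifi203 and 0% for Aim2. With transcripts of genes outside the family, Ifi203 shared 12.6%, Aim2 0.911% and the other members at most 1.88%. Pyhin1 shares 29.3% of its words, all with Ifi214, which has no entry under that name in the deposited table. Whether reads of Ifi214 were counted as Pyhin1 was not tested. Levels of Mnda and Ifi205 are therefore the least certain, and those of Aim2 are free of this limit within the family.

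Expression was read as RPKM, reads per kilobase of gene, scaled by library depth. The libraries held 21.18 to 56.3 M counted reads each (1 M is 1000000), and the MLL-AF1p libraries were the deepest (48.88 to 56.3 M). Genes that reached 1 RPKM in 3 or more libraries were tested, 11238 in all and 5 of the 7 members. Mnda and Ifi205 fell below it. Fold changes are on the log2(RPKM + 0.5) scale, which understates the change of low genes, with standard errors and Benjamini-Hochberg adjusted p-values from limma. The words rose and fell are kept for genes with an adjusted p under 0.05. Because the RNA is bulk, fewer cells of a type and less RNA per cell cannot be told apart.

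Aim2 and Pyhin1 together held most of the summed RPKM of the 7 genes, and their shares changed with treatment. Summed over the 7 genes, the level was 19.9 ± 4.06 RPKM (SD, n = 3) with DMSO and 30.2 ± 3.41 with MI-2-2 in MLL-AF9 cells. In MLL-AF6 cells it was 91.6 ± 11.5 and 36.6 ± 2.62, and in MLL-AF1p cells 55.7 ± 1.87 and 44.2 ± 3.88. Without Aim2, the sum of the other members stood at 0.576 ± 0.249 RPKM with DMSO in MLL-AF9 cells and at 10.1 ± 2.45 with MI-2-2. Of the summed RPKM under DMSO, Aim2 held 97.2% in MLL-AF9 cells, while Pyhin1 held 73.7% in MLL-AF6 cells and 56.4% in MLL-AF1p cells. With MI-2-2, the share of Pyhin1 was 7.66% for MLL-AF9, 30.4% for MLL-AF6 and 35.2% for MLL-AF1p.

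**Figure D1:**
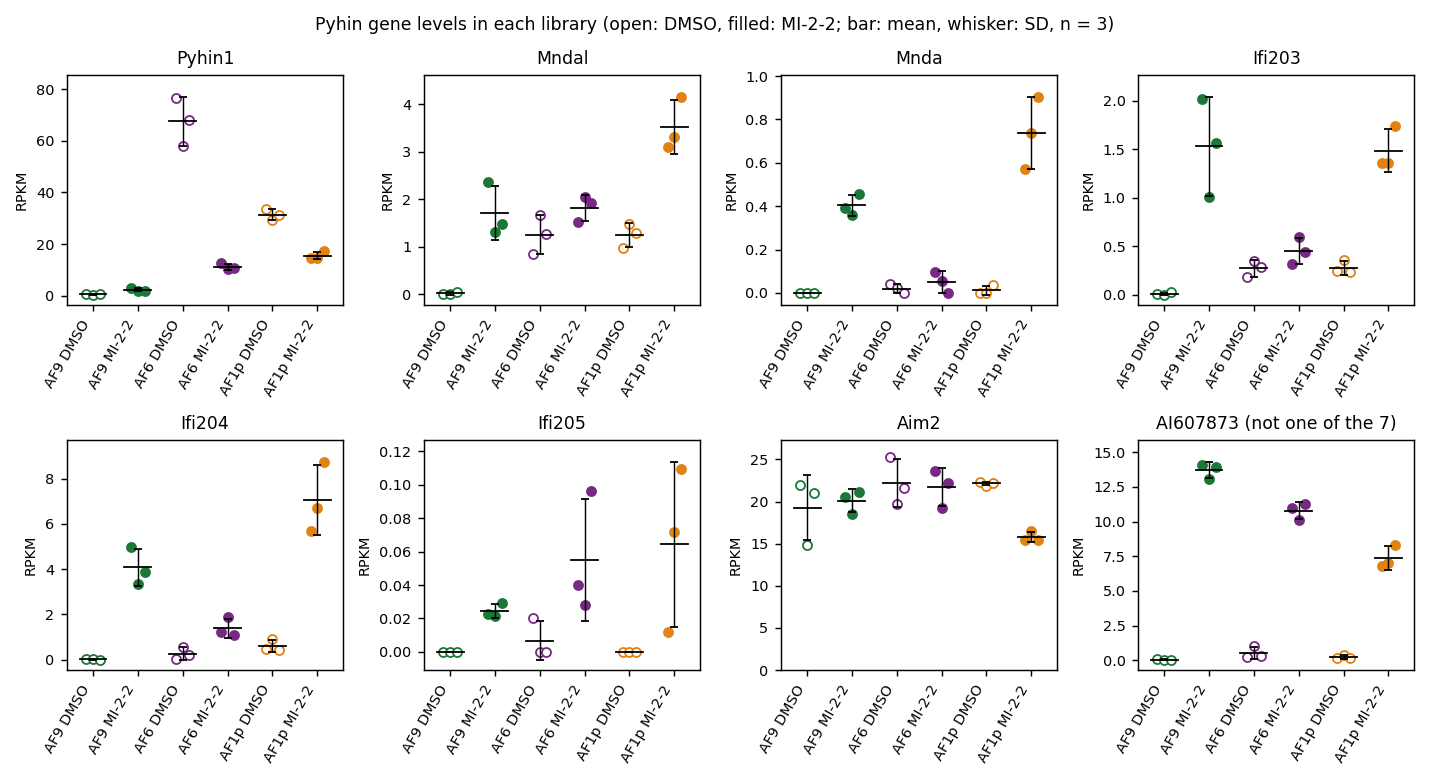
RPKM (vertical axis, linear, scaled per gene) of the 7 Pyhin genes and of AI607873, a further Pyhin gene, in each of the 18 libraries by group (horizontal axis); open points are DMSO, filled points MI-2-2, bars the mean and whiskers the SD of 3 libraries. Pyhin1 stands at 57.9 to 76.8 RPKM in MLL-AF6 DMSO libraries and below 1 in those of MLL-AF9, Aim2 lies between 14.9 and 25.3 in all 18, and Ifi204 is higher with MI-2-2 in each construct.

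Aim2, the sensor of cytosolic DNA, lay between 14.9 and 25.3 RPKM in all 18 libraries, and MI-2-2 lowered it in MLL-AF1p cells. With DMSO its RPKM was 21.9, 14.9 and 21.0 in the MLL-AF9 libraries (replicates 1 to 3), 25.3, 19.7 and 21.6 in those of MLL-AF6, and 22.3, 21.9 and 22.2 in those of MLL-AF1p. With MI-2-2 it was 20.6, 18.6 and 21.1, then 23.6, 19.3 and 22.3, then 15.4, 16.5 and 15.4. Treated and control libraries overlapped in MLL-AF9 and MLL-AF6 cells, and in MLL-AF1p cells all 3 treated libraries lay below all 3 controls. The log2 fold change was 0.08 in MLL-AF9 cells (95% interval -0.19 to 0.34; adjusted p = 0.626, limma) and -0.03 in MLL-AF6 cells (-0.29 to 0.23; adjusted p = 0.860). In MLL-AF1p cells Aim2 fell by 0.48 on the log2 scale (SE 0.12, adjusted p = 0.0053, limma). In these DMSO comparisons the log2 difference of Aim2 between constructs was between -0.22 and 0.00, and none passed the test. Without MLL-AF9 DMSO replicate 1, the highest of its group, MLL-AF9 cells were lower by -0.31 than MLL-AF6 cells (adjusted p = 0.0483, limma) and by -0.32 than MLL-AF1p cells (adjusted p = 0.0411).

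Pyhin1 differed between constructs both in its level under DMSO and in the direction of its response. It is a HIN-200 gene that, like its relatives, encodes a protein with a pyrin domain. With DMSO its RPKM was 0.553, 0.286 and 0.746 in MLL-AF9 libraries, 76.8, 57.9 and 68.1 in MLL-AF6 libraries, and 33.6, 29.3 and 31.5 in MLL-AF1p libraries. No library of any group overlapped those of another group, and the group means ran in the order MLL-AF6 DMSO, MLL-AF1p DMSO, MLL-AF1p MI-2-2, MLL-AF6 MI-2-2, MLL-AF9 MI-2-2 and MLL-AF9 DMSO. Against MLL-AF6 cells, MLL-AF9 cells under DMSO were lower by a log2 difference of -6.07 (SE 0.16, adjusted p = 1.78e-13, limma), which ranked 3 from the lowest of the 11238 genes tested. Against MLL-AF1p cells the difference was -4.98 (adjusted p = 1.71e-12, limma), which ranked 6 from the lowest. MLL-AF6 cells exceeded MLL-AF1p cells by 1.08 (adjusted p = 7.59e-05, limma).

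MI-2-2 moved Pyhin1 in opposite directions. In MLL-AF9 cells the treated libraries held 3.02, 1.97 and 1.99 RPKM, a mean 4.41 times that of the controls, and the gene rose by 1.46 on the log2 scale (SE 0.16, adjusted p = 1.96e-06, limma). In MLL-AF6 cells they held 12.5, 10.3 and 10.7, and the gene fell by 2.54 (adjusted p = 4.11e-09, limma), from a mean 6.06 times higher under DMSO. In MLL-AF1p cells they held 14.6, 14.8 and 17.3, and the gene fell by 0.99 (adjusted p = 0.000165, limma), from a mean 2.02 times higher. The fall in MLL-AF6 cells ranked 30 from the lowest of all genes tested. Treatment thus narrowed the range of group means from 0.528 to 67.6 RPKM with DMSO to 2.33 to 15.6 RPKM with MI-2-2.

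Ifi204, which encodes p204, a HIN-200 protein described as a nucleic acid sensor and as a partner of cell-cycle and lineage factors in mouse cells, rose with MI-2-2 in all 3 constructs. With DMSO its RPKM was 0.0195, 0.0395 and 0 in MLL-AF9 libraries, 0.0143, 0.568 and 0.186 in MLL-AF6 libraries, and 0.455, 0.894 and 0.444 in MLL-AF1p libraries. With MI-2-2 it was 4.97, 3.36 and 3.89, then 1.20, 1.88 and 1.07, then 5.69, 6.71 and 8.73. Treated and control libraries did not overlap in any construct. The rise was 3.12 on the log2 scale in MLL-AF9 cells (SE 0.24, adjusted p = 3.44e-08, limma), 1.36 in MLL-AF6 cells (adjusted p = 0.000221) and 2.79 in MLL-AF1p cells (adjusted p = 2.8e-07). MLL-AF9 controls held 3 reads of the gene over 3 libraries, so reads pooled over each group and scaled to its depth were compared there. Their ratio was 230 with a 95% counting interval of 78.3 to 1116, and the fitted value depends on the pseudocount. In MLL-AF6 cells the mean was 5.40 times and in MLL-AF1p cells 11.8 times that of the controls.

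Ifi203 and Mndal, a pair of HIN-200 genes with nearly the same promoter stretch, rose in MLL-AF9 and MLL-AF1p cells. Ifi203 stood with DMSO at 0.0062, 0 and 0.0237 RPKM in MLL-AF9 libraries, 0.178, 0.351 and 0.286 in MLL-AF6 libraries, and 0.242, 0.357 and 0.231 in MLL-AF1p libraries. With MI-2-2 it stood at 2.02, 1.00 and 1.57, then 0.319, 0.589 and 0.435, then 1.35, 1.35 and 1.74. Libraries overlapped in MLL-AF6 cells and were apart in the other constructs. The rises were 1.96 in MLL-AF9 cells (adjusted p = 7.21e-08, limma) and 1.35 in MLL-AF1p cells (adjusted p = 8.67e-06), and the value in MLL-AF6 cells was 0.29 (95% interval -0.05 to 0.64; adjusted p = 0.137).

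Mndal with DMSO was at 0, 0 and 0.0538 RPKM in MLL-AF9 libraries, 0.844, 1.66 and 1.27 in MLL-AF6 libraries, and 0.982, 1.48 and 1.28 in MLL-AF1p libraries. With MI-2-2 it was at 2.36, 1.30 and 1.48, then 1.51, 2.04 and 1.91, then 3.10, 3.31 and 4.15. Treated and control libraries overlapped in MLL-AF6 cells and in no other construct. It rose by 2.07 in MLL-AF9 cells (adjusted p = 1.9e-07, limma) and by 1.20 in MLL-AF1p cells (adjusted p = 9.85e-05). In MLL-AF6 cells the value was 0.42 (adjusted p = 0.0670), and median centring raised it to 0.50, past the threshold (adjusted p = 0.0331, limma). MLL-AF6 DMSO replicate 2 was the highest control, and leaving it out gave 0.58 (adjusted p = 0.0207, limma). Without MLL-AF9 MI-2-2 replicate 1 the value stayed 0.42 at an adjusted p of 0.0401 (limma). The size of the rises depended on the setting: with limma-voom on the recovered reads those in MLL-AF9 cells were 6.27 for Mndal, 7.25 for Ifi203 and 7.57 for Ifi204, and the rise of Ifi203 in MLL-AF1p cells was 2.49 and that of Ifi204 in MLL-AF6 cells 3.51.

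In both MLL-AF6 and MLL-AF1p cells, DMSO replicate 2 was the highest of the controls in Ifi204, Ifi203, Mndal and AI607873, and the lowest in Pyhin1. What sets those libraries apart was not tested.

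Mnda and Ifi205 stayed below the filter and were looked at in reads. Mnda had 0 reads over the MLL-AF9 controls and 51 with MI-2-2, at 0.394, 0.361 and 0.456 RPKM. Set against a floor of 3 reads over the group, it was at least 16.1-fold higher. In MLL-AF1p cells it had 3 and 189 reads, with treated libraries at 0.570, 0.738 and 0.904 RPKM. The ratio of pooled reads scaled to depth was 62.6 (95% counting interval 21.1 to 306). In MLL-AF6 cells it had 3 and 7 reads, a ratio of the same kind of 2.58 whose interval (0.589 to 15.5) includes 1. Intervals and floors cover counting error only. Without the filter, limma gave adjusted p-values of 5.19e-06 (MLL-AF9), 0.683 (MLL-AF6) and 2.8e-07 (MLL-AF1p). Ifi205 had no more than 9 reads in any library: 0 and 3 over the groups in MLL-AF9 cells, 1 and 7 in MLL-AF6 cells and 0 and 16 in MLL-AF1p cells, there at least 5.30-fold higher. Mnda shares 30.1% of its 50-base words with Ifi204 and 44.7% with Ifi205, and Ifi205 shares 3.71% with Ifi204 and 49.5% with Mnda. Whether their reads came from another member was not tested.

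Counted together, 4 of the 5 tested members passed in MLL-AF9 cells, all 4 higher, where 56.4% of all tested genes passed (28.5% higher and 27.9% lower). In MLL-AF6 cells 2 of 5 passed, 1 in each direction, where 57% of all genes did (18% higher and 38.9% lower). In MLL-AF1p cells all 5 passed, 3 higher and 2 lower, where 45.4% of all genes did (19.1% higher and 26.3% lower). With 5 genes tested, none of these counts is read as particular to the family.

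**Figure D2:**
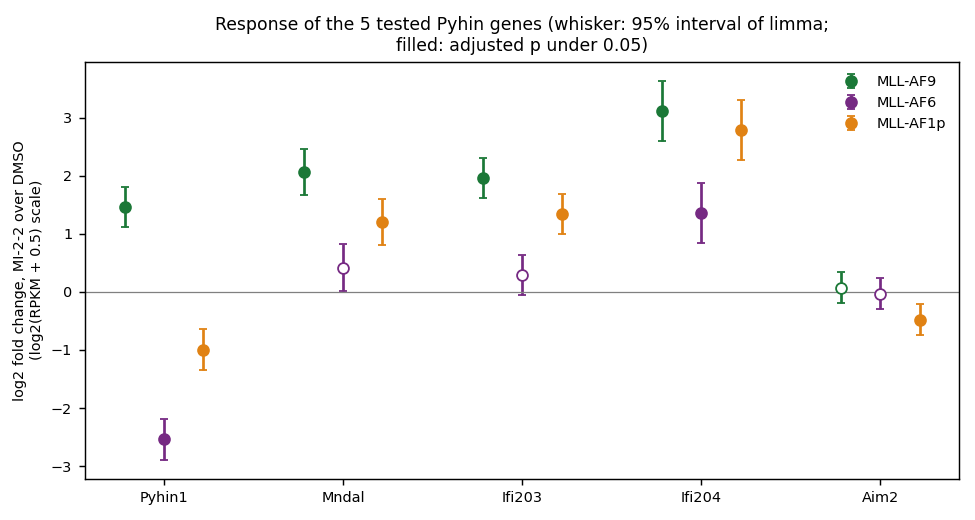
Log2 fold change of MI-2-2 over DMSO (vertical axis, on the log2(RPKM + 0.5) scale) for the 5 tested members in each construct; whiskers are 95% intervals from limma and filled points passed at an adjusted p under 0.05. Pyhin1 lies at 1.46 in MLL-AF9 cells and at -2.54 in MLL-AF6 cells, and Ifi204, Ifi203 and Mndal have their lowest value in MLL-AF6 cells.

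The response itself differed between constructs. For Pyhin1 the effect in MLL-AF9 cells exceeded that in MLL-AF6 cells by 4.01 (SE 0.23, adjusted p = 1.28e-08, limma), rank 4 from the highest of all genes, and that in MLL-AF1p cells by 2.46 (adjusted p = 3.00e-06). The effects in MLL-AF6 and MLL-AF1p cells differed by -1.55 (adjusted p = 0.000198). Against MLL-AF6 cells, the effect in MLL-AF9 cells was also larger for Mndal (1.65, adjusted p = 0.000302, limma), Ifi203 (1.67, adjusted p = 7.86e-05) and Ifi204 (1.77, adjusted p = 0.00133). In all, 4 of 5 members differed between MLL-AF9 and MLL-AF6 cells, 3 of 5 between MLL-AF9 and MLL-AF1p cells and 4 of 5 between MLL-AF6 and MLL-AF1p cells, where 33.1%, 35.1% and 31.1% of all genes did.

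Several smaller differences gained or lost a call with the setting. Between MLL-AF6 and MLL-AF1p cells, Ifi203 differed by -1.06 (adjusted p = 0.00314, limma). Ifi204 differed by -1.43 (adjusted p = 0.00584), which became -1.03 with a pseudocount of 0.1 (adjusted p = 0.244) and -0.16 with limma-voom on the recovered reads (adjusted p = 0.915), so its size relative to MLL-AF1p cells is not settled. Mndal differed by -0.78 (adjusted p = 0.0355), and leaving out MLL-AF6 DMSO replicate 2 gave -0.62, no longer a call (adjusted p = 0.0820). The call was lost as well with a pseudocount of 0.1 (-0.90, adjusted p = 0.0768), without the filter on low values (adjusted p = 0.0886) and with limma-voom (-0.83, adjusted p = 0.105). It was also lost, with adjusted p-values of 0.0521 to 0.0927, without MLL-AF6 DMSO replicate 3, MLL-AF6 MI-2-2 replicates 1 or 3, MLL-AF1p DMSO replicates 1 or 3, or MLL-AF1p MI-2-2 replicates 2 or 3. Between MLL-AF9 and MLL-AF1p cells, the difference of Mndal (0.86, adjusted p = 0.0204) was lost without MLL-AF9 MI-2-2 replicate 1 (0.66), MLL-AF1p DMSO replicate 2 (0.77) or MLL-AF1p MI-2-2 replicate 1 (0.79). It was lost too with quantile normalization (0.63, adjusted p = 0.0832) and without the filter (adjusted p = 0.0532). That of Aim2 (0.55, adjusted p = 0.0231) was lost without MLL-AF9 MI-2-2 replicate 3 (0.52, adjusted p = 0.0537, limma), with median centring (0.43, adjusted p = 0.0591) and without the filter (adjusted p = 0.0564). Ifi204 differed by 0.34 between MLL-AF9 and MLL-AF1p cells (95% interval -0.40 to 1.07) and Ifi203 by 0.61 (0.12 to 1.10; adjusted p = 0.0511), and neither passed. With a pseudocount of 0.1 both passed, Ifi203 at 1.77 (adjusted p = 0.0021, limma) and Ifi204 at 1.73 (adjusted p = 0.0487). With limma-voom both passed as well, Ifi203 at 4.76 (adjusted p = 0.000736) and Ifi204 at 3.91 (adjusted p = 0.0204), so neither size is settled. With a constant prior variance Ifi203 passed at 0.61 (adjusted p = 0.0427). Ifi203 also passed there without MLL-AF9 MI-2-2 replicate 2 (0.81), without MLL-AF1p MI-2-2 replicate 3 (0.70) and, at 0.61, without MLL-AF6 DMSO replicate 1 or MLL-AF6 MI-2-2 replicate 2. Aim2 differed by 0.45 between MLL-AF6 and MLL-AF1p cells (adjusted p = 0.0625). It passed at the same value without MLL-AF9 DMSO replicates 1 or 2, at 0.54 without MLL-AF6 DMSO replicate 1 and at 0.53 without MLL-AF6 MI-2-2 replicate 2. It passed as well with median centring (0.49, adjusted p = 0.0395, limma), quantile normalization (0.54, adjusted p = 0.0241) and limma-voom (0.58, adjusted p = 0.0159).

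Under DMSO, all 7 members had their lowest or joint lowest group mean in MLL-AF9 cells. MLL-AF9 cells were lower than MLL-AF6 cells in 3 of the 5 tested members and lower than MLL-AF1p cells in 4 of 5, where 53.6% and 65.1% of all genes differed (29.1% and 36.5% lower in MLL-AF9 cells). Mndal differed by -1.74 from MLL-AF6 cells (adjusted p = 1.58e-06, limma) and by -1.75 from MLL-AF1p cells (adjusted p = 1.05e-06). Ifi203 differed by -0.59 (adjusted p = 0.0066) and -0.60 (adjusted p = 0.0044). Ifi204 differed by -0.48 (adjusted p = 0.112) and -1.05 (adjusted p = 0.00138), and the first reached -0.72 without MLL-AF6 DMSO replicate 1 (adjusted p = 0.0218, limma) and -1.24 with a pseudocount of 0.1 (adjusted p = 0.0309). MLL-AF6 and MLL-AF1p cells differed in 1 of 5 members, Pyhin1, where 52.5% of all genes did. Ifi204 (-0.58, adjusted p = 0.0571) passed there on leaving out MLL-AF6 DMSO replicate 2 (-0.86, adjusted p = 0.00535, limma) or, at the same value, MLL-AF6 MI-2-2 replicate 2 (adjusted p = 0.0492). It also passed with a pseudocount of 0.1 (-1.26, adjusted p = 0.0295) and with limma-voom (-2.09, adjusted p = 0.0342).

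Across the 18 libraries Ifi203 and Ifi204 ran closely together (Pearson r = 0.963 on log2(RPKM + 0.5)), and Mndal followed them at 0.815 and 0.822. Pyhin1 did not, at 0.043 with Ifi203 and -0.001 with Ifi204. These correlations pool libraries of 6 groups and describe group patterns, with no test. The genes whose pattern was most like that of Pyhin1 were Prkcz, an atypical protein kinase C (0.973), Ptger4, a prostaglandin E receptor (0.968), and Bmi1, a Polycomb subunit (0.963). Bmi1 stood at 6.11 and 9.03 RPKM with DMSO and MI-2-2 in MLL-AF9 cells, 17.9 and 11.8 in MLL-AF6 cells, and 14.4 and 13.6 in MLL-AF1p cells. For Ifi203 they were Oasl2 (0.960) and Ddx60 (0.956), both interferon-induced genes, and the glucokinase Adpgk (0.944). For Ifi204 they were Adpgk (0.975), the kinase Rps6ka2 (0.963) and the leukocyte protein Lsp1 (0.954), which went from 0.122 to 9.25, from 0.211 to 4.09 and from 0.809 to 9.65 RPKM in the 3 constructs. For Mndal they were Nlrc5, a regulator of MHC class I genes (0.961), Prdm4 (0.949) and Il18rap, an interleukin-18 receptor chain (0.939). Aim2 was matched less closely, by Gna13 (0.888), Stx7 (0.888) and Syt11 (0.884).

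Other Pyhin genes of the cluster behaved unlike one another. AI607873, now Ifi207, was not one of the 7 and had a larger log2 fold change than any tested member in each construct on this scale. Its RPKM with DMSO was 0.0774, 0 and 0.0296 in MLL-AF9 libraries, 0.237, 1.00 and 0.328 in MLL-AF6 libraries, and 0.142, 0.374 and 0.123 in MLL-AF1p libraries. With MI-2-2 it was 14.1, 13.1 and 14.0, then 10.96, 10.1 and 11.3, then 6.78, 7.001 and 8.33. It rose by 4.73 (adjusted p = 2.83e-11, limma), 3.54 (adjusted p = 7.89e-10) and 3.48 (adjusted p = 2.22e-09). Its promoter stretch, shown to compare with those of the members, also carries the element core, 41 bases before the start. With it, 5 of 6 other Pyhin genes with a window hold the core within 80 bases before the start. The same held for 2.38% of all genes with windows. Stretches of Pydc3, Pydc4 and Ifi206 share unbroken runs of 47 to 65 bases, so their matches are not independent of each other. The stretch of AI607873 is:
AI607873, chr1:173741810-173741889, minus strand: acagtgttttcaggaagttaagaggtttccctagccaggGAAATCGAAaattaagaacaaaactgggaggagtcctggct

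Pydc3 and Pydc4, whose stretches hold the same core, stayed below the filter, with group means of 0.072 to 0.751 and 0 to 0.232 RPKM. With DMSO and MI-2-2, Pydc3 was at 0.072 and 0.153 (MLL-AF9), 0.751 and 0.213 (MLL-AF6), and 0.394 and 0.656 (MLL-AF1p). Pydc4 was at 0 and 0.0544, 0.150 and 0.0265, and 0.0679 and 0.232 in the same order. Treated and control libraries overlapped only for Pydc3 in MLL-AF9 cells, and these changes were not tested. Ifi202b had 0 reads in all 18 libraries, which allows a level of up to 0.00133 RPKM over all of them. The cores were thus present before the start of genes that rose in 3 constructs (AI607873) and that rose in 2 (Ifi203 and Mndal). They were also present in genes below the filter whose means were lower with MI-2-2 in MLL-AF6 cells (Pydc3 and Pydc4).

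**Figure D3:**
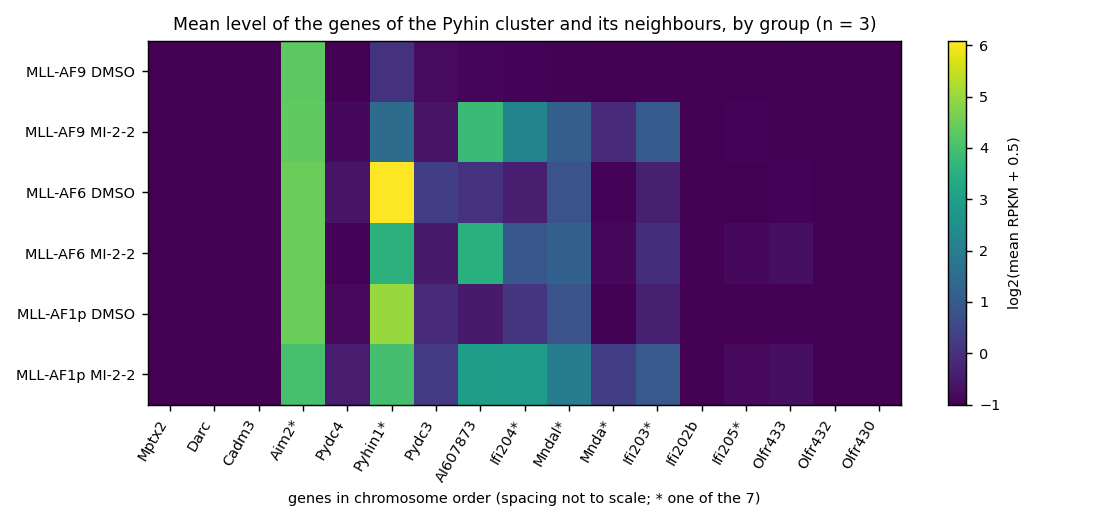
Group mean of log2(mean RPKM + 0.5) (colour, n = 3) for the genes of the Pyhin cluster and 3 listed neighbours on each side, in chromosome order on the horizontal axis (not to scale; asterisks mark the 7 genes) and by group on the vertical axis. The neighbours stay at or near the floor of the scale, Aim2 is similar in all groups, and AI607873 and Ifi204 are higher with MI-2-2 in each construct.

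The neighbours of the cluster in the reference order were silent or nearly so. Mptx2, Darc and Cadm3 on one side and Olfr432 and Olfr430 on the other were at 0 in all libraries, and Olfr433 had group means of 0.0068 to 0.116 RPKM.

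A list of interferon-stimulated genes that holds no member also responded differently by construct. Of 34 tested, 29 rose and 0 fell in MLL-AF9 cells (median 1.40, against -0.00 over all genes tested), 4 rose and 22 fell in MLL-AF6 cells (median -0.58, against -0.16), and 14 rose and 4 fell in MLL-AF1p cells (median 0.27, against -0.06). Over all genes tested, 28.5% rose and 27.9% fell in MLL-AF9 cells, 18% and 38.9% in MLL-AF6 cells, and 19.1% and 26.3% in MLL-AF1p cells. Between MLL-AF9 and MLL-AF6 cells the effect was larger in MLL-AF9 cells for 31 of the 34 and smaller for 0. Of all genes tested, 33.1% differed there in either direction. Rtp4, a chaperone of receptors, rose by 3.31 in MLL-AF9 cells (adjusted p = 3.92e-07, limma) and by 2.41 in MLL-AF1p cells and fell by 1.15 in MLL-AF6 cells. Oas2, which makes the activator of RNase L, rose by 2.52 and 0.61 and fell by 2.00 in the same order. Ifi27l2a and the chemokine Cxcl10 rose in all 3 constructs, Ifi27l2a by 3.55 (MLL-AF9), 1.58 (MLL-AF6) and 4.80 (MLL-AF1p). Of Pyhin1's directions, the fall in MLL-AF6 cells was shared by 22 of these genes and the fall in MLL-AF1p cells by 4. Under DMSO, 21 of the 34 were lower and 5 higher in MLL-AF9 than in MLL-AF6 cells. Against MLL-AF1p cells 19 were lower and 6 higher. Of all genes tested, 29.1% and 36.5% were lower in MLL-AF9 cells in these comparisons.

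**Figure D4:**
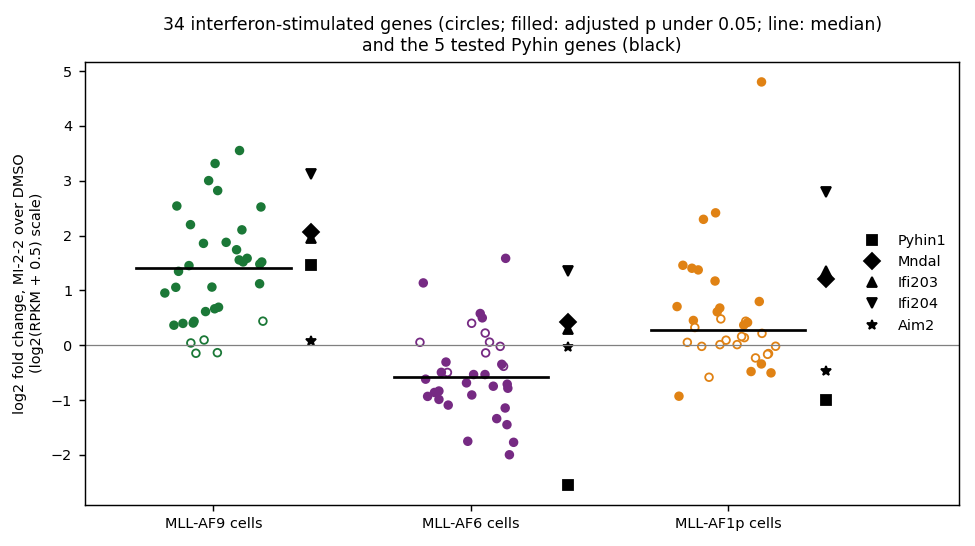
Log2 fold change of MI-2-2 over DMSO (vertical axis, log2(RPKM + 0.5) scale) for 34 interferon-stimulated genes (circles, filled where the adjusted p was under 0.05, line at the median) and the 5 tested Pyhin genes (black symbols) in each construct. The circles centre on 1.40 in MLL-AF9 cells and on -0.58 in MLL-AF6 cells, and Pyhin1 lies below all circles in MLL-AF6 cells.

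Interferon genes themselves were barely read. Of 18 listed type I and III genes, 13 had 0 reads in all libraries, and Ifnb1 had 6 reads in all. Among 19 genes of the receptors, kinases and transcription factors that carry the interferon signal, 13 rose and 2 fell in MLL-AF9 cells, 5 and 7 in MLL-AF6 cells, and 6 and 2 in MLL-AF1p cells. Over all genes tested the shares were 28.5% and 27.9%, 18% and 38.9%, and 19.1% and 26.3% in the same order, and the MLL-AF6 counts lie near theirs. Irf8, a transcription factor of the monocyte lineage, had its lowest group mean in MLL-AF9 cells under DMSO (0.680 RPKM, against 21.5 in MLL-AF6 and 18.1 in MLL-AF1p cells). It rose by 3.56, 0.73 and 0.62 in the 3 constructs. Irf5 rose by 1.67, 2.25 and 1.75. Ifngr2, a chain of the interferon gamma receptor, rose in all 3 and Ifngr1, the other chain, fell in all 3, by 0.70, 0.61 and 0.67 on the log2 scale.

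Around Aim2, 13 of 20 inflammasome genes rose and 2 fell in MLL-AF9 cells (median 0.66), 9 rose and 3 fell in MLL-AF6 cells (median -0.01), and 5 rose and 5 fell in MLL-AF1p cells (median 0.05). Over all genes tested, 28.5% rose and 27.9% fell, 18% and 38.9%, and 19.1% and 26.3% in the same order. Their medians were -0.00, -0.16 and -0.06. The MLL-AF1p counts lie near those shares and are no result about the inflammasome list. The sensor Nlrp3 rose by 2.91, 1.17 and 0.97, the cytokine gene Il1a by 2.68, 3.71 and 1.47, Il18 by 1.45, 1.83 and 1.98, and the receptor antagonist Il1rn by 3.11, 1.97 and 1.03. Of 25 genes of DNA sensing and DNA removal, 12 rose and 6 fell in MLL-AF9 cells, 4 and 10 in MLL-AF6 cells, and 8 and 6 in MLL-AF1p cells. The MLL-AF6 counts lie near the 18% and 38.9% of all genes and are no result about the list, and the shares of all genes were 28.5% and 27.9% in MLL-AF9 cells and 19.1% and 26.3% in MLL-AF1p cells. Tlr9, the endosomal DNA receptor, rose by 1.14, 1.96 and 1.60, and Xrcc5, a subunit of Ku, rose in all 3 as well. Zbp1, a sensor of Z-form nucleic acid, rose by 0.39 in MLL-AF9 cells and fell by 1.09 and 0.68 in MLL-AF6 and MLL-AF1p cells, the directions of Pyhin1. Rnaseh2a, a subunit of RNase H2, fell in all 3.

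Among 16 genes for cell-cycle and p53 factors that human IFI16 or mouse p202 and p204 are known to bind, 4 rose and 4 fell in MLL-AF9 cells, 1 and 8 in MLL-AF6 cells, and 4 and 6 in MLL-AF1p cells. Against 28.5% and 27.9%, 18% and 38.9%, and 19.1% and 26.3% of all genes tested, these counts of a short list are not read as particular to it. Id2, which blocks basic helix-loop-helix proteins, increased by 4.47, 4.00 and 1.84. Id1 and Runx2 fell in all 3 constructs, and Myc fell in MLL-AF9 (by 1.32) and MLL-AF6 cells (by 0.88). Of 16 myeloid transcription factor genes, 11, 10 and 9 rose and 2, 2 and 1 fell, where 28.5%, 18% and 19.1% of all genes rose. Egr1 rose by 6.10, 5.43 and 4.26, Egr2 by 3.18, 2.39 and 0.93, Klf4 by 1.85, 3.37 and 2.87, and Maf by 1.58, 3.69 and 1.55.

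Summed levels of markers of mature myeloid cells moved with treatment. The level summed over 11 monocyte and macrophage markers, 9 of them tested, was 588 to 1940 RPKM in MLL-AF9 DMSO libraries and 3760 to 4920 RPKM with MI-2-2. The same sum was 2001 to 4088 and 8936 to 12833 RPKM in MLL-AF6 libraries, and 681 to 799 and 4086 to 4527 RPKM in MLL-AF1p libraries. The sum over 10 neutrophil markers was 2920 to 4117 and 24779 to 28854 RPKM in MLL-AF9 libraries, 2298 to 3143 and 18786 to 20613 in MLL-AF6 libraries, and 3405 to 3852 and 30919 to 35846 in MLL-AF1p libraries. Treated and control libraries of a construct did not overlap in either sum. Single genes weigh heavily in both sums: Lyz2 reached 11357 RPKM, S100a8 17083 and S100a9 12456.5. The sums therefore do not show that each marker of a list moved. The sum over 9 markers of myeloid progenitors was 5945 to 9057 and 2310 to 2568 RPKM in MLL-AF9 libraries, 5326 to 5653 and 2226 to 2808 in MLL-AF6 libraries, and 6458 to 9005 and 7151 to 7597, which overlap, in MLL-AF1p libraries. Elane alone reached 5604 RPKM among the progenitor markers. The 7 dendritic cell markers summed to at most 14.8 RPKM and the 5 megakaryocyte and mast cell markers to at most 28.1 RPKM. Summed markers of B, T and NK cells, erythroid cells and fibroblasts stayed at or below 2.89 RPKM in every library, with 3 of 6 B cell, 1 of 7 T cell, 2 of 5 NK cell and 3 of 5 erythroid markers at 0 throughout. Ifi204 rose where the myeloid sums were higher, in all 3 constructs, while Pyhin1 went up in 1 and down in 2. The part of the myeloid markers in these results was not tested.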

How the data were processed

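Per the file headers, the authors deposited RPKM and gene length for 23418 genes in 18 libraries. The submitters' processing notes list mm9, edgeR, HTSeq, Bowtie2 2.0.0.7 and CASAVA 1.8.2, with no roles. The kit does not mark strand, per the labels' protocols, so overlapping genes on opposite strands are not separated. RPKM times length gave whole reads for 100% of values (tolerance 0.05), hence depth, 21.18 to 56.3 M per library, which sets the precision of low genes.

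Groups came from the labels. Genes reaching 1 RPKM in 3 or more libraries were tested with limma 3.58.1 (R 4.3.3) on log2(RPKM + 0.5). One model held the 6 group means, with 12 degrees of freedom left, a prior variance that follows mean level, and Benjamini-Hochberg adjustment within each comparison at 0.05. The test was checked on simulated data. Treatment was compared per construct and between constructs, and constructs were compared under DMSO. Alternatives were a pseudocount of 0.1, no filter, other scalings (median, quantile), a flat prior variance, a replicate block, limma-voom on recovered reads, subsets fitted alone and each library left out.

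Named genes were all 7 members, up to 4 genes per list (those called in the most constructs, then by size), the 3 genes most correlated with each tested member, and the cluster's neighbours. Members and lists were chosen with earlier results of these data known. The chi-square per degree of freedom between libraries of a group was 4.46 to 88.4, so none was counted as a repeat of another. Members were compared by 50-base words of GENCODE transcripts in place of proteins, which were not used here. Promoter windows are RefSeq's on GRCm38.p6, a later build than the authors', matched by symbol or synonym. Figures were drawn with matplotlib 3.10.9.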

Additional observations from a re-analysis of the deposited data

Results flagged for a closer look

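Tests of the difference itself found that the response to MI-2-2 differed between constructs in 11 results, each on the log2(RPKM + 0.5) scale by limma with the adjusted p over 11238 genes. Of all genes tested, 33.1% differed between MLL-AF9 and MLL-AF6 cells. The shares were 35.1% between MLL-AF9 and MLL-AF1p cells and 31.1% between MLL-AF6 and MLL-AF1p cells. Pyhin1 differed in all 3 pairs: by 4.01 between MLL-AF9 and MLL-AF6 cells, by 2.46 between MLL-AF9 and MLL-AF1p cells and by -1.55 between MLL-AF6 and MLL-AF1p cells, with opposite directions in MLL-AF9 cells and the other constructs. Mndal differed by 1.65, 0.86 and -0.78 in the same pairs. Ifi203 differed by 1.67 between MLL-AF9 and MLL-AF6 cells and by -1.06 between MLL-AF6 and MLL-AF1p cells, and Ifi204 by 1.77 and -1.43 in those pairs. Aim2 differed by 0.55 between MLL-AF9 and MLL-AF1p cells. The calls of Mndal at 0.86 and -0.78, Ifi204 at -1.43 and Aim2 at 0.55 were lost under some alternatives, as given above. Groups of 3 libraries were too small for a search for single outlying samples.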

How the results depend on the processing

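The treatment counts stayed within 1.5 times under every alternative, and each treatment call of Pyhin1, Ifi203, Ifi204 and Aim2 kept its side of the threshold; that of Mndal in MLL-AF6 cells did not (0.50 with median centring). Between MLL-AF9 and MLL-AF1p cells the count of members whose effect differed went from 3 to 5 with a pseudocount of 0.1 and to 5 with limma-voom. Between MLL-AF6 and MLL-AF1p cells it went from 4 to 2 with a pseudocount of 0.1. Under DMSO, MLL-AF6 and MLL-AF1p cells differed in 1 member, in 2 with a pseudocount of 0.1, with the replicate block or with limma-voom, and in 1 to 2 with a library left out; the member added was Ifi204. Signs turned in uncalled values near 0. For Aim2 median centring gave -0.0046 in MLL-AF9 cells, and 0.0545 (quantile normalization 0.0691, limma-voom 0.138) in MLL-AF6 cells; with a library left out it ran from -0.097 to 0.177 and from -0.108 to 0.0667. The MLL-AF9 and MLL-AF6 difference of Aim2 was -0.0591, -0.0419 and -0.0775 under those settings and ran from -0.0686 to 0.205 with a library left out. Under DMSO between MLL-AF6 and MLL-AF1p cells, median centring gave 0.0153 for Mndal, 0.0105 for Ifi203 and 0.0185 for Aim2, quantile normalization 0.156 for Mndal and 0.111 for Ifi203, and limma-voom 0.0123 for Mndal and 0.023 for Aim2. Leaving out a library gave -0.169 to 0.172 for Mndal, -0.0862 to 0.0778 for Ifi203 and -0.0995 to 0.0756 for Aim2. The causes were not tested. Over all single-gene results, 1079 of 1155 alternatives kept direction and call, 29 gained a call, 21 lost one and 26 turned sign. Scaling moved the median of all genes by up to 0.15 (limma-voom, MLL-AF6 cells) in a treatment comparison and by -0.16 (median centring) in the MLL-AF9 and MLL-AF6 difference, and Pyhin1 kept its directions under each. With the replicate block 4, 2 and 5 members were called in the treatment comparisons, as without it, the Aim2 difference between MLL-AF6 and MLL-AF1p cells passed at 0.45 (adjusted p = 0.0212) and Ifi204 between them under DMSO at -0.58 (adjusted p = 0.0394), and over all genes 6914, 7048 and 5938 against 6339, 6402 and 5103. Correlations of same-numbered libraries were 0.0008 to 0.557, not all over 0.1. In each construct, MI-2-2 replicates 1 and 2 correlated best with the DMSO library of their own number (0.0976 to 0.557). MI-2-2 replicate 3 correlated best with DMSO replicate 1 (0.151 to 0.342) and at 0.0008 to 0.0261 with its own number. The number thus went with shared variation for replicates 1 and 2. These are deviations from the group mean, which cancel within a group, so values of replicate 3 follow from those of replicates 1 and 2. They cannot show whether replicate 3 shares variation with its own number. What same-numbered libraries have in common was not tested. Depth limits Mnda and Ifi205, with at most 189 reads in a group.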
